A study of Mus musculus with 15 samples.

Results

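The apolipoproteins and lipoprotein assembly genes examined here were Apoa1, Apoa2, Apoa4, Apoa5, Apob, Apoc2, Apoc3, Apoe, Mttp and Tm6sf2, chosen by name and matched by gene symbol to 10 of the 57132 gene identifiers in the count table. All 10 passed the filter on low counts. The study sequenced bulk liver RNA of male C57BL/6J mice aged 8 weeks when diets began. SR9009 mice were kept for 18 weeks on CDA-HFD, a high-fat diet deficient in choline with an adapted amino acid content, and received daily intraperitoneal SR9009 at 100 mg/kg per day in the last 6 of those weeks. SR9009 is a synthetic agonist of REV-ERB alpha and beta, nuclear receptors that repress transcription in the circadian clock. Vehicle mice ate the same diet for the same time and received the 15% Kolliphor vehicle in place of the agonist. Chow mice ate standard chow for 18 weeks. Whether Chow mice had injections is not stated, which means that diet and injection cannot be told apart, and no hour of collection is stated either. The diet damages and scars the liver without any genetic change, and the labels name no mutation in any group. The analysis used 5 SR9009, 5 Vehicle and 4 Chow libraries.

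Liver secretes triglyceride and cholesterol as very low density lipoprotein. The transfer protein encoded by Mttp loads lipid onto newly made ApoB in the endoplasmic reticulum, and Tm6sf2 promotes the lipidation of the particle. Smaller exchangeable apolipoproteins then join circulating particles, where they form high density lipoprotein, steer particles to receptors, or switch plasma triglyceride hydrolysis on or off. Choline is needed to make phosphatidylcholine, the main surface lipid of these particles, and choline-deficient rodents retain triglyceride in the liver. REV-ERB alpha is known to repress the human APOC3 gene.

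Apoa1, Apoc3, Apoa4 and Apoa5 lie next to each other on chromosome 9 in mouse, and Apoe and Apoc2 lie in another cluster on chromosome 7. The sequences just upstream of the starts of Apoa4, Apoa1 and Apoa5 are shown because Apoa4 rose in the diet-fed livers of Vehicle mice while its neighbours Apoa1 and Apoa5 did not. Each is the 250 bases before the start from RefSeq's GRCm38.p6 promoter table, 5′ to 3′ on the plus strand, which is the coding strand of all 3 genes. They span chr9:46240594-46240843 for Apoa4, chr9:46228380-46228629 for Apoa1 and chr9:46268383-46268632 for Apoa5, and the capitals mark an E-box (CACGTG).
Apoa4: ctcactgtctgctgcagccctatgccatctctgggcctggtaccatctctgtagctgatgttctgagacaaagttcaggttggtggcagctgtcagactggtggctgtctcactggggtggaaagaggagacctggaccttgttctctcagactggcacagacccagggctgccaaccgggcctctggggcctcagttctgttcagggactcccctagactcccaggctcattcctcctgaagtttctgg
Apoa1: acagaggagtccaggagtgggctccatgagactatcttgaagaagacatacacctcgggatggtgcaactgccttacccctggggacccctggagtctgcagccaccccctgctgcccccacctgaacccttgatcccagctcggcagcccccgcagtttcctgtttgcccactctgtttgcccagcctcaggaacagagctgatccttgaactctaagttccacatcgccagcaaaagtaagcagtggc
Apoa5: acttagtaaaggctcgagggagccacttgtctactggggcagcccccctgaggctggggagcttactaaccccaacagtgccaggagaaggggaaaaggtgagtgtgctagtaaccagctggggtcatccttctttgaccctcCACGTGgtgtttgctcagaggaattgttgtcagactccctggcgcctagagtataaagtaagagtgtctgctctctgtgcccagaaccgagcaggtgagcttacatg

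Of the 10 genes, 8 had an entry in that table; Apoc3 and Tm6sf2 are named here without one. Short motifs were searched on both strands of these windows and of all 32851 windows of the table, and no 2 matches to different motifs overlapped in the windows of the 8 genes. The E-box stood 102 to 107 bases before the start in the Apoa5 window shown, which shares most of its bases with the window of a second Apoa5 start, and in no window of the other 7 genes, against 6.02% of all windows. The nuclear receptor half-site AGGTCA was found for Apoa2 and Apoc2, against 14.02% of all windows. CCAAT was found for Apoa2, against 33.8%. The exact letters CAAAGTC, part of an HNF4-like element, were found for none of the 8, against 3.84%. Other forms of that element were not searched, so the windows, also those printed above, may still hold them. A match is a description of letters in a window and does not show binding.

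Library totals ranged from 29950509 to 45542335 counts. Levels are in CPM, the count scaled to a common library size, on totals adjusted by TMM (trimmed mean of M values), and the factors were 1.02 to 1.15 in diet-fed libraries but 0.753 to 0.824 in Chow. A gene was called when its Benjamini-Hochberg adjusted p over 18181 tested genes was under 0.05 in edgeR's quasi-likelihood test. With unscaled totals the median log2 fold change of all genes in Vehicle against Chow was 0.50 instead of 0.023. In SR9009 against Chow it was 0.47 instead of 0.023. Each direction below is therefore relative to the bulk of genes. Reversals of direction under unscaled totals are given for single genes of the set examined here. Medians of that set and of the related gene lists are not given on unscaled totals and may reverse. Diet-fed libraries fell into a pair of sets. In 3 SR9009 and 3 Vehicle libraries 150 to 231 of 1752 olfactory and related receptor genes had a count, against 58 to 76 in the other 2 of each group and 45 to 105 in Chow. Summed CPM of 8 hepatocyte markers was 61263 to 78202 in SR9009, 75513 to 81178 in Vehicle and 102326 to 138178 in Chow, and 6 of the 8 fell in Vehicle against Chow. Summed CPM of 15 macrophage markers was 2468 to 3105 in SR9009, 2528 to 3737 in Vehicle and 252 to 824 in Chow, and 12 of the 15 rose in Vehicle against Chow. Of stellate cell and fibroblast markers 7 of 8 rose (870.1 to 1549 CPM in SR9009, 933 to 1307 in Vehicle and 191 to 258 in Chow), and of cholangiocyte markers 6 of 6 (460.3 to 1147, 413 to 979 and 50.1 to 84.8 in the same order). Mesothelium markers summed to 26.0 to 118 CPM in SR9009, 20.8 to 63.5 in Vehicle and 5.16 to 18.6 in Chow, with 3 SR9009 libraries above every Vehicle library. In bulk tissue, fewer hepatocytes and less RNA per hepatocyte cannot be told apart, and the part these shifts play in the changes below was not tested.

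Vehicle was first set against Chow, a contrast of the diet plus injections. In Vehicle livers 7 of the 10 fell, 1 rose and 2 were not called, against a background of 55.2% of all tested genes called in either direction, 25.4% lower and 29.8% higher. Leaving out 1 library gave 4 to 7 lower and 1 higher, with the 4 reached without Chow replicate 1, where Apoa5, Apoe and Tm6sf2 lost their calls. The largest falls were in Mttp and Apoc3, each to less than 0.5 times its Chow level, and the rise was in Apoa4. The median log2 fold change of the 10 genes was -0.47 on TMM-scaled totals, beside 0.023 for all tested genes. With unscaled totals 3 fell (Mttp, Apoc3 and Apoa2) and 2 rose (Apoa4 and Apoc2), while over all genes the share of calls that were higher went up to 88.3%, against 54.0% with TMM. Among all 18181 tested genes, 10389 were called higher and 1378 lower on unscaled totals.

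Mttp (ENSMUSG00000028158.15, chromosome 3) encodes the large subunit of microsomal triglyceride transfer protein. Its level was 221, 176, 224, 179 and 190.2 CPM in the 5 SR9009 libraries, 153, 179.9, 165, 194 and 180.0 CPM in the 5 Vehicle libraries, and 416, 414, 384 and 361 CPM in the 4 Chow libraries. Every diet-fed library lay far below every Chow library, and the SR9009 and Vehicle libraries overlapped. Mttp fell to 0.443 times the Chow level in Vehicle (log2 fold change -1.18 ± 0.10 SE, adjusted p = 8.95e-08 in edgeR's quasi-likelihood test) and to 0.503 times in SR9009 (-0.99 ± 0.10, adjusted p = 4.70e-07). It also fell with unscaled totals (-0.69).

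Apob (ENSMUSG00000020609.15, chromosome 12) encodes the structural protein of very low density lipoprotein. It was at 4394, 3494, 4309, 3602 and 3853 CPM in SR9009, at 3995, 4687, 4149, 3932 and 4453 CPM in Vehicle, and at 6570.1, 5761, 6646 and 6175 CPM in Chow. Again no diet-fed library reached the lowest Chow library. The log2 fold change of Apob was -0.57 ± 0.10 SE in Vehicle against Chow (adjusted p = 0.000169, edgeR's quasi-likelihood test) and -0.68 ± 0.10 in SR9009 against Chow (adjusted p = 3.06e-05). With unscaled totals the Vehicle difference was -0.08 and was not called.

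Tm6sf2 (ENSMUSG00000036151.16, chromosome 8), an endoplasmic reticulum membrane protein needed for full lipidation of very low density lipoprotein, was far less abundant. Its level was 26.1, 27.7, 25.6, 25.9 and 35.3 CPM in SR9009, 24.6, 35.2, 20.1, 21.1 and 17.5 CPM in Vehicle, and 35.9, 32.2, 24.6 and 35.1 CPM in Chow. All 3 groups overlapped. Tm6sf2 was called lower in Vehicle than in Chow at the edge of the threshold (log2 fold change -0.43 ± 0.18 SE, adjusted p = 0.0489, edgeR's quasi-likelihood test), turned to 0.055 without a call on unscaled totals, and lost its call in 11 of the 14 fits that each left out 1 library. Vehicle replicate 2 stood above the other Vehicle libraries, and without it the fall was larger (-0.62, adjusted p = 0.00135). In SR9009 against Chow Tm6sf2 was not called (-0.18 ± 0.18, adjusted p = 0.393).

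Apoc3 (ENSMUSG00000032081.11, chromosome 9), an inhibitor of lipoprotein lipase and of the hepatic uptake of remnants, was at 641, 679, 1083, 789 and 1017 CPM in SR9009, at 853, 724, 730.2, 769.7 and 892 CPM in Vehicle, and at 2045, 1745, 1703 and 1426 CPM in Chow. The highest diet-fed library was below the lowest Chow library, and SR9009 libraries lay both above and below the Vehicle range. The log2 fold change of Apoc3 was -1.12 ± 0.15 SE in Vehicle (adjusted p = 1.42e-05, edgeR's quasi-likelihood test) and -1.04 ± 0.15 in SR9009 (adjusted p = 2.89e-05), both against Chow. On unscaled totals the Vehicle value was -0.64 and still called.

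Apoa2 (ENSMUSG00000005681.13, chromosome 1), the second main protein of high density lipoprotein, was at 2752, 3011, 3841, 3246 and 3903 CPM in SR9009, at 3860.3, 2040.3, 2981, 3189 and 3372 CPM in Vehicle, and at 6993, 5977, 5311 and 5489 CPM in Chow. Chow libraries were again all above the diet-fed ones, among which Vehicle replicate 2 was lowest. Its log2 fold change was -0.94 ± 0.16 SE in Vehicle (adjusted p = 0.000126, edgeR's quasi-likelihood test) and -0.83 ± 0.16 in SR9009 (adjusted p = 0.000398) against Chow, and -0.47 for Vehicle on unscaled totals (adjusted p = 0.00692).

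Apoa1 (ENSMUSG00000032083.9, chromosome 9), the main protein of high density lipoprotein and activator of Lcat, ranged from 4409 to 6428 CPM in SR9009 (median 5710.1), from 4849 to 7733 CPM in Vehicle (median 5904) and from 5934 to 9646 CPM in Chow (median 8140). The lowest Chow library lay within both diet-fed ranges. Apoa1 was not called in Vehicle (log2 fold change -0.38 ± 0.16 SE, adjusted p = 0.0523, edgeR's quasi-likelihood test), and the value turned to 0.10 on unscaled totals. It was called in Vehicle without Vehicle replicate 1 (-0.48, adjusted p = 0.0183), without Chow replicate 2 (-0.49, adjusted p = 0.0151) or without SR9009 replicate 1 (-0.38, adjusted p = 0.0430). SR9009 against Chow gave -0.50 ± 0.16 (adjusted p = 0.0140), but -0.39 without Chow replicate 1 (adjusted p = 0.0609) and -0.04 on unscaled totals, neither called.

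Apoe (ENSMUSG00000002985.17, chromosome 7), the ligand by which remnants bind their receptors, was the most abundant of the 10 by CPM. It ranged from 13517 to 18392 CPM in SR9009, from 16059 to 20051 CPM in Vehicle and from 20165 to 25935 CPM in Chow, and the Vehicle and Chow ranges did not overlap by a narrow margin. Its log2 fold change was -0.34 ± 0.12 SE in Vehicle (adjusted p = 0.0217, edgeR's quasi-likelihood test) and -0.42 ± 0.12 in SR9009 (adjusted p = 0.00638) against Chow. On unscaled totals both turned positive without a call (0.14 in Vehicle and 0.033 in SR9009), and without Chow replicate 1 the Vehicle value was -0.25 and not called (adjusted p = 0.0935). Macrophages also make Apoe, and their markers moved the opposite way, as given above.

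Apoa5 (ENSMUSG00000032079.13, chromosome 9), which promotes triglyceride hydrolysis by lipoprotein lipase, ranged from 345 to 608 CPM in SR9009, from 394 to 606 CPM in Vehicle and from 553 to 862 CPM in Chow. The lowest Chow library overlapped the diet-fed ranges. Its log2 fold change against Chow was -0.51 ± 0.16 SE in Vehicle (adjusted p = 0.0126, edgeR's quasi-likelihood test) and -0.51 ± 0.16 in SR9009 (adjusted p = 0.0126). Without Chow replicate 1 both were -0.39 and not called (adjusted p = 0.0580 in Vehicle and 0.0567 in SR9009). On unscaled totals they were -0.03 in Vehicle and -0.06 in SR9009, not called.

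Apoa4 (ENSMUSG00000032080.7, chromosome 9), an apolipoprotein that intestine and, in mouse, liver secrete and whose hepatic mRNA is known to increase in fatty mouse livers, was the gene that rose. Its level was 37.0, 54.0, 55.9, 66.1 and 61.0 CPM in SR9009, 52.5, 401, 51.7, 46.3 and 44.3 CPM in Vehicle, and 20.7, 28.1, 10.9 and 7.26 CPM in Chow. Every diet-fed library exceeded every Chow library. Vehicle replicate 2 alone was 8.24 times the mean of the other Vehicle libraries. The log2 fold change of Vehicle against Chow was 2.82 ± 0.75 SE (7.08-fold, adjusted p = 0.00675, edgeR's quasi-likelihood test), and 1.53 without Vehicle replicate 2 (adjusted p = 0.00168). On unscaled totals it was 3.33. SR9009 against Chow gave 1.70 ± 0.72 (3.26-fold, adjusted p = 0.0620), not called; the same difference was called without Vehicle replicate 2, whose spread the fit shares (1.70, adjusted p = 0.000566), on unscaled totals (2.15, adjusted p = 0.0220), and with a fit to the 2 groups alone (1.71, adjusted p = 0.00388).

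Apoa4 shares 34.9% of its exon bases with Gm47528 and 34.8% with Gm10680, both on the opposite strand in GENCODE M21. Gm47528 had 96 counts in Vehicle replicate 2 and 41 to 66 in the other Vehicle libraries, so it too was highest there (2.26 CPM, 2.08 times the mean of the others). It had 415 counts in all 14 libraries together and Gm10680 had 0, against 176 to 17047 counts of Apoa4 in a library. Summed CPM of 7 enterocyte markers in the table was 46.8 to 61.1 in SR9009, 64.4 to 107 in Vehicle and 49.6 to 87.2 in Chow. The 107 was Vehicle replicate 2, against 64.4 to 83.9 in the other Vehicle libraries, so this sum was highest where Apoa4 was, and its part in the Apoa4 level was not tested. Of these markers, only 2 of the 7 were at a mean of 1 CPM or more in SR9009 and in Vehicle and 1 in Chow. The sum thus rested on 1 or 2 genes in each group. Alpi, the intestinal alkaline phosphatase, was at 0 in every library. Cdx2 was at 0 in all SR9009 and Chow libraries, Cdx1 in all Vehicle and Chow libraries, and Rbp2 in all Chow libraries. Vehicle replicate 2 was also above the other Vehicle libraries for Apob and Tm6sf2, and below them for Apoa1, Apoa2, Apoc3 and Apoe.

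Apoc2 (ENSMUSG00000002992.18, chromosome 7), the activator of lipoprotein lipase, had few counts, 62 to 247 in a library. Its level was 2.25, 2.52, 3.79, 1.96 and 2.13 CPM in SR9009, 3.56, 4.75, 5.11, 3.24 and 4.36 CPM in Vehicle, and 2.18, 5.58, 3.05 and 3.17 CPM in Chow. SR9009 libraries were lower than Vehicle libraries except replicate 3, which fell within the Vehicle range. Chow libraries overlapped both groups, though SR9009 replicates 4 and 5 lay below the lowest of them. In Vehicle against Chow Apoc2 was not called (log2 fold change 0.26 ± 0.26 SE, adjusted p = 0.414, edgeR's quasi-likelihood test), though it was with unscaled totals (0.73, adjusted p = 0.0271). Of its 813 exon bases, 646 (79.5%) are shared on the same strand with Gm44805, which had 0 counts in every library. The level of Apoc2 may therefore miss reads that counting could not place, and all its values are uncertain; this was not tested.

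**Figure D1:**
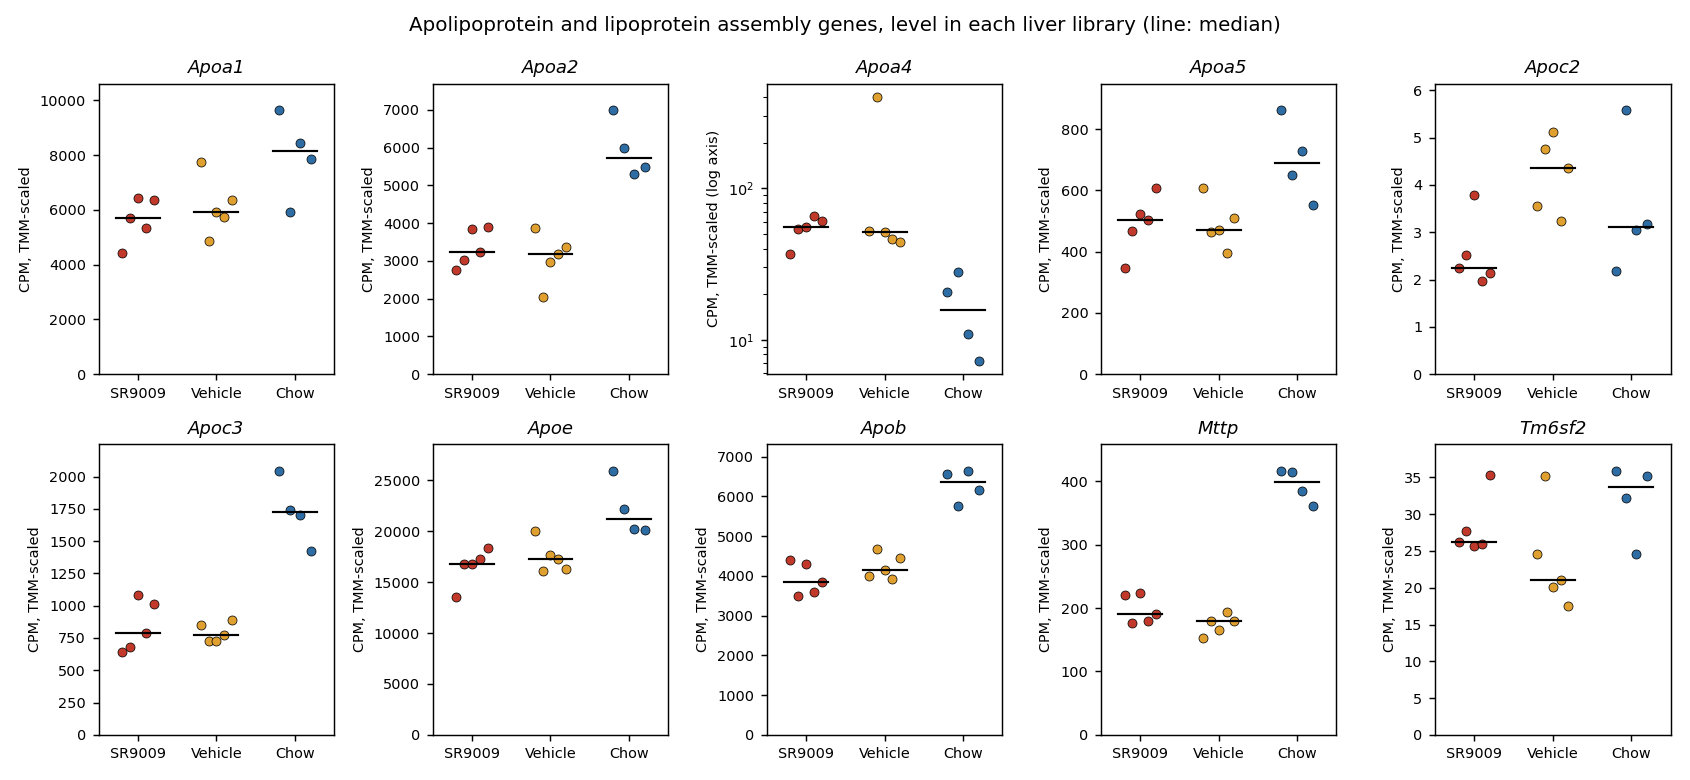
Level of each of the 10 genes in each liver library, in CPM on TMM-scaled totals, with SR9009, Vehicle and Chow libraries as separate points and the group median as a line; the Apoa4 axis is logarithmic. Mttp, Apob, Apoa2, Apoc3 and, by a narrow margin, Apoe show every diet-fed library below every Chow library. The share of all tested genes that do so is not given here. Apoa4 shows Vehicle replicate 2 at 401 CPM above all others.

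Levels per kilobase of exon allow a rough comparison of different genes. The length used joins all annotated exons of a gene and can exceed that of the mRNA made in liver. The order can therefore shift with the annotation, and the Apoc2 counts are uncertain as said above. In SR9009 the order was Apoe (7739 ± 850.1 CPM per kb, SD, n = 5), Apoa2 (6239 ± 945) and Apoa1 (4570.0 ± 672). Then came Apoc3 (830.2 ± 196), Apob (282 ± 29.2), Apoa5 (194 ± 38.1), Mttp (31.9 ± 3.72), Apoa4 (30.2 ± 6.06), Tm6sf2 (14.8 ± 2.15) and Apoc2 (3.11 ± 0.904). In that order Apoe and Apoa2, Apoa2 and Apoa1, and Mttp and Apoa4 overlapped between libraries. In Vehicle the order was the same except that Apoa4 (65.7 ± 86.9, SD, n = 5) came before Mttp (28.1 ± 2.54), through Vehicle replicate 2. The Vehicle libraries of Apoa2 and Apoa1, of Apoa5 and Apoa4, and of Apoa4 and Mttp overlapped. In Chow, Apoa2 (11066 ± 1406 CPM per kb, SD, n = 4) and Apoe (10354 ± 1262) led and overlapped, and Apoa4 (9.22 ± 5.21) stood ninth, overlapping both Tm6sf2 (16.8 ± 2.705) and Apoc2 (4.30 ± 1.80). Mttp in Chow (63.5 ± 4.28) lay apart from its neighbours Apoa5 and Tm6sf2.

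SR9009 against Vehicle addressed the effect of the agonist in diet-fed livers. Of the 10 genes, 0 were called by edgeR's quasi-likelihood test, where 0.242% of all tested genes were (0.165% higher and 0.077% lower), and the median log2 fold change of the 10 was -0.04, beside 0.0011 for all tested genes. At an unadjusted p under 0.05 in that test there was 1 of the 10, Apoc2, beside 1323 (7.28%) of all tested genes. DESeq2 and limma-voom with quality weights also called 0 of the 10, of 212 and 66 genes called in all; DESeq2 gave Apoa4 no adjusted p.

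Apoc2 had a log2 fold change of -0.73 ± 0.24 SE in SR9009 against Vehicle (unadjusted p = 0.00838, adjusted p = 0.374, edgeR's quasi-likelihood test), with the limit on its counts given above. Apoa4 gave -1.12 ± 0.65 (adjusted p = 0.796), a value set by Vehicle replicate 2: without it the difference was 0.17 (adjusted p = 0.950). Mttp gave 0.18 ± 0.09 (adjusted p = 0.716), with a 95% interval from -0.01 to 0.38. For Apoc3, the known REV-ERB alpha target, the difference was 0.08 ± 0.14 (adjusted p = 0.969, edgeR's quasi-likelihood test). Its interval ran from -0.22 to 0.39, with a lower end at 0.857 times the Vehicle level. That interval covers the spread between these libraries only and does not exclude an effect of the agonist on Apoc3. The intervals were -0.43 to 0.20 for Apoa1, -0.21 to 0.44 for Apoa2, -0.32 to 0.32 for Apoa5, -0.31 to 0.09 for Apob, -0.31 to 0.16 for Apoe and -0.11 to 0.60 for Tm6sf2. None of these shows that the groups were alike.

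In SR9009 against Chow, 7 of the 10 genes fell (Apoa1, Apoa2, Apoa5, Apob, Apoc3, Apoe and Mttp), 0 rose and 3 were not called, against 56.2% of all tested genes called in either direction, 30.5% higher and 25.7% lower. With unscaled totals 4 fell (Apoa2, Apob, Apoc3 and Mttp) and 1 rose (Apoa4), while 86.3% of all calls were higher, against 54.3% with TMM. Among all 18181 tested genes, 9964 were called higher and 1577 lower on unscaled totals. On TMM-scaled totals the median of the 10 was -0.50, beside 0.023 for all genes. This comparison shares its Chow libraries with that of Vehicle and Chow, and its SR9009 libraries with that of SR9009 and Vehicle. Apoc2 was not called (log2 fold change -0.47 ± 0.26 SE, adjusted p = 0.135, edgeR's quasi-likelihood test), but was without SR9009 replicate 3 (-0.66, adjusted p = 0.0360) or without Chow replicate 1 (-0.64, adjusted p = 0.0485).

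**Figure D2:**
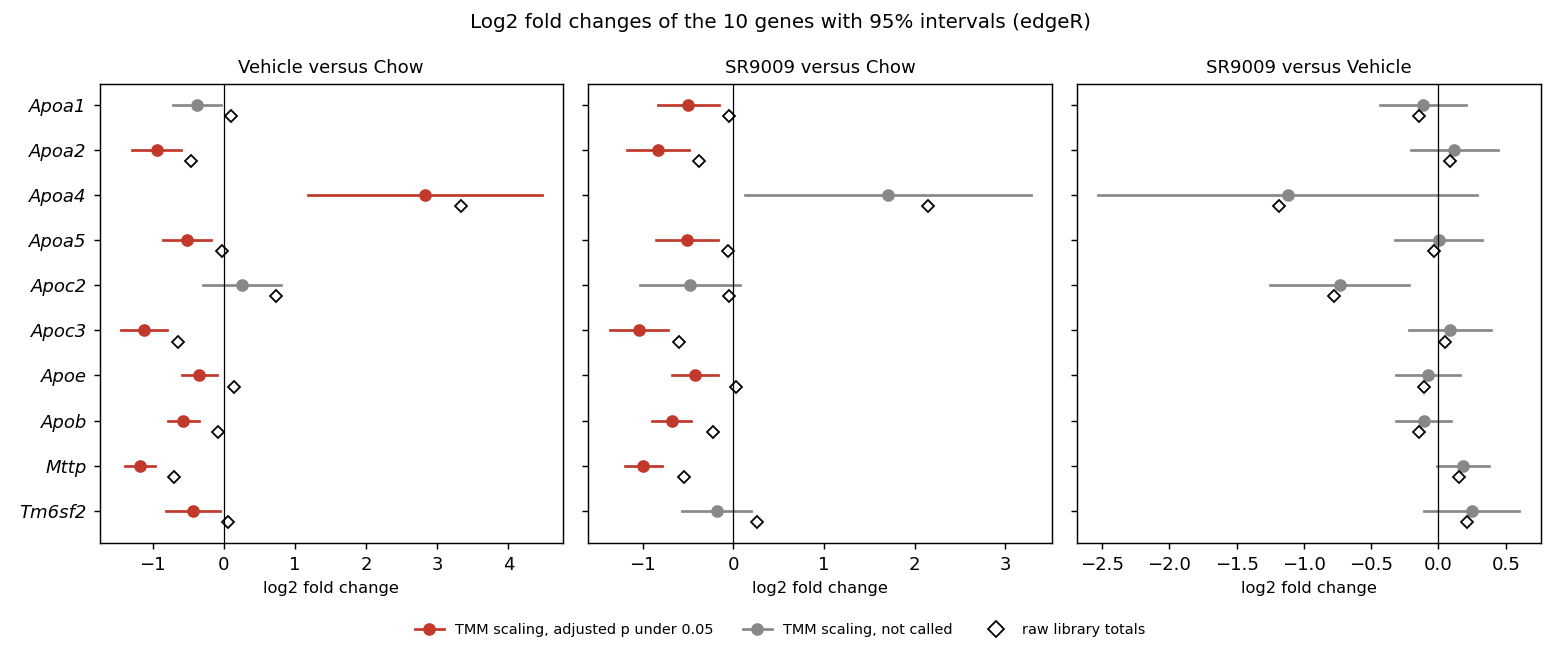
Log2 fold changes of the 10 genes with 95% intervals in the 3 comparisons, red where adjusted p was under 0.05 and grey where not, on TMM-scaled totals; open diamonds give the value on unscaled library totals, and the panels have different axes. Mttp, Apoc3 and Apoa2 stay below 0 on both scalings in the 2 comparisons with Chow, whereas Apoe and Tm6sf2 turn positive on unscaled totals in both and Apoa1 in Vehicle against Chow (0.10).

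Ratios of 2 genes within a library do not depend on how libraries are scaled. For 7 such ratios, the group means of the log2 ratio of counts were compared by exact two-sided permutation tests, with Benjamini-Hochberg adjustment over 21 tests. The smallest p these designs allow is 0.00794 for SR9009 against Vehicle and 0.0159 for either against Chow. Groups that do not overlap reach that smallest p and no lower one. Leaving out 1 library of either group compared makes it larger, and in those 9 or 10 tests of each comparison no ratio had an adjusted p under 0.0545; with differences of medians in place of means none was under 0.0769.

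The ratio of Mttp to Apob counts, of loader to cargo, was 0.0504, 0.0504, 0.0521, 0.0497 and 0.0494 in the 5 SR9009 libraries, 0.0383, 0.0384, 0.0399, 0.0493 and 0.0404 in the 5 Vehicle libraries, and 0.0634, 0.0719, 0.0578 and 0.0584 in the 4 Chow libraries. The 3 groups did not overlap, but Vehicle replicate 4 all but touched the lowest SR9009 library. The mean log2 ratio of Vehicle minus that of Chow was -0.61 (exact permutation p = 0.0159, adjusted p = 0.0333). SR9009 minus Vehicle gave 0.29, or a 1.23-fold higher ratio (exact permutation p = 0.00794, adjusted p = 0.0333), and 5 of 5 SR9009 libraries exceeded 5 of 5 Vehicle libraries. SR9009 minus Chow gave -0.31 (exact permutation p = 0.0159, adjusted p = 0.0333). Within the diet-fed libraries with few receptor genes the SR9009 minus Vehicle difference was 0.20 (2 against 2 libraries), and within those with many it was 0.36 (3 against 3). Neither gene was called alone in SR9009 against Vehicle.

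The ratio of Apoa2 to Apoa1 counts, both from high density lipoprotein genes, was 0.624, 0.527, 0.598, 0.609 and 0.613 in SR9009, 0.499, 0.421, 0.505, 0.556 and 0.529 in Vehicle, and 0.725, 1.01, 0.6298 and 0.6995 in Chow. All Chow libraries were above all diet-fed ones, and SR9009 replicate 2 fell within the Vehicle range. The mean log2 ratio differed by -0.59 between Vehicle and Chow (exact permutation p = 0.0159, adjusted p = 0.0333), by -0.34 between SR9009 and Chow (exact permutation p = 0.0159, adjusted p = 0.0333), and by 0.25 between SR9009 and Vehicle (exact permutation p = 0.0238, adjusted p = 0.0455). Within libraries with few and with many receptor genes the SR9009 minus Vehicle difference was 0.17 and 0.30.

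Along the chromosome 9 cluster, whose upstream sequences are printed above for Apoa4, Apoa1 and Apoa5, the ratios of Apoc3 and of Apoa4 to Apoa1 differed from Chow. Apoc3 to Apoa1 was 0.119 to 0.168 in SR9009, 0.110 to 0.149 in Vehicle and 0.182 to 0.294 in Chow, so that both diet-fed groups lay below Chow without overlap. The mean log2 difference was -0.74 for Vehicle minus Chow and -0.57 for SR9009 minus Chow (exact permutation p = 0.0159 and adjusted p = 0.0333 for each). Apoa4 to Apoa1 was 0.00839 to 0.0124 in SR9009, 0.00679 to 0.0827 in Vehicle and 0.000925 to 0.00473 in Chow. Its mean log2 difference was 2.71 for Vehicle minus Chow and 2.36 for SR9009 minus Chow (exact permutation p = 0.0159 and adjusted p = 0.0333 for each). Without Vehicle replicate 2 the first was 2.03. Apoa5 to Apoa1 overlapped in all groups and was not called in any comparison (adjusted p of 0.354 or more, exact permutation test).

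The ratio of Tm6sf2 to Apob counts was 0.00594 to 0.00916 in SR9009, 0.00394 to 0.00750 in Vehicle and 0.00371 to 0.00569 in Chow. SR9009 was above Chow without overlap (log2 difference 0.50, exact permutation p = 0.0159, adjusted p = 0.0333). Vehicle overlapped both (0.39 for SR9009 minus Vehicle, adjusted p = 0.131; 0.11 for Vehicle minus Chow, adjusted p = 0.778; exact permutation tests). The ratio of Apoe to Apoc2 counts had a log2 difference of 0.67 for SR9009 minus Vehicle (exact permutation p = 0.0397, adjusted p = 0.0694) and rests on the uncertain Apoc2 counts.

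**Figure D3:**
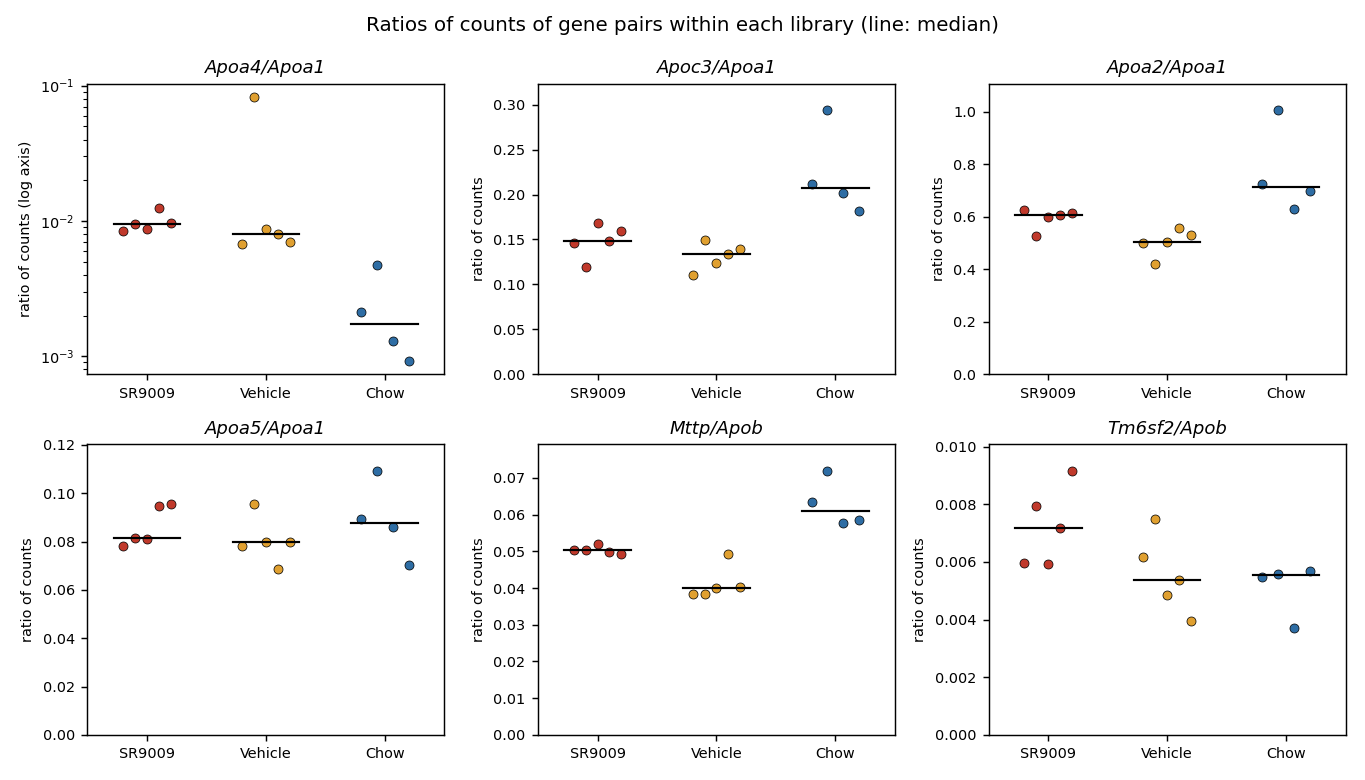
Ratio of counts of 2 genes within each liver library for 6 gene pairs, with SR9009, Vehicle and Chow libraries as points and the group median as a line; the Apoa4 to Apoa1 axis is logarithmic. Mttp to Apob lies at 0.0494 to 0.0521 in SR9009, 0.0383 to 0.0493 in Vehicle and 0.0578 to 0.0719 in Chow.

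Libraries also differed in the balance of short and long transcripts. The median log2 CPM of 169 genes with under 1000 exon bases, minus that of 4088 genes with over 5000, was -0.32 to 0.04 in SR9009, -0.39 to -0.12 in Vehicle and -0.03 to 0.32 in Chow. Deviations of Apoc3 from its group means followed this balance (Pearson r = 0.88 over 14 libraries, given as a description), as did those of Apoa2 (0.74), Apoa5 (0.72), Apoe (0.68) and Apoa1 (0.54), whereas those of Tm6sf2 (0.29), Mttp (0.21), Apoa4 (0.16), Apob (0.09) and Apoc2 (-0.05) did so less. Over all annotated exons joined, Apoa2 has 537, Apoc2 813, Apoc3 1014, Apoa1 1236, Apoa4 1815, Tm6sf2 1901, Apoe 2138, Apoa5 2522, Mttp 6206 and Apob 13934 bases. Whether the correlations follow these lengths was not tested. The part of this balance in the differences was not tested.

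By deviation from the group means of log2 CPM, the genes outside the 10 most like Apoc3 were Atp5j2 (r = 0.99), Atp5e (0.98) and Cox7a2 (0.96), encoding subunits of mitochondrial ATP synthase and cytochrome oxidase. Those most like Apoa1 were Cnpy2, Serpina11 and Apom (all 0.93), and those most like Mttp were Syap1 (0.96) and 4833439L19Rik (0.94). Apob came closest to Fpgt (0.95), Brwd3 (0.94) and Pno1 (0.91), Apoe to Cldn3 (0.97), Sdf4 (0.95) and Imp3 (0.95), and Apoa2 to Msrb1 (0.98), Fxyd1 (0.97) and Asgr2 (0.97). Apoa5 was most like Hras (0.96), Gabarap (0.95) and Elob (0.94), Tm6sf2 like Ldha (0.93), Cryl1 (0.87) and Robo4 (0.84), and Apoc2 like Tcf7l2 (0.88), Il17rb (0.81) and Zbtb44 (0.77). For Apoa4 they were H19, Elovl2 and Etnppl (all 0.90), but without Vehicle replicate 2 they were Dapk3, Proser2 and Eif1a (0.94, 0.94 and 0.92 over 13 libraries). All are correlations over 14 libraries unless said, and libraries share depth and transcript balance. Each is among the highest of all tested genes at a mean of at least 10 CPM, so high values can arise by selection alone.

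Other genes of the pathway were followed in 6 lists, read beside the 29.8% of genes called higher and 25.4% called lower in Vehicle against Chow. Of 11 tested other apolipoproteins, 2 rose and 8 fell in Vehicle (median log2 fold change -0.65). Apoc1, an inhibitor of lipoprotein uptake that lies beside Apoe, fell to 0.528 times its Chow level (-0.92 ± 0.13 SE, adjusted p = 1.48e-05). Apol7a (-1.16), Apon (-0.85) and Apoh, a phospholipid-binding plasma protein (-0.83), fell too. Of 13 high density lipoprotein and plasma enzyme genes, 1 rose and 8 fell (median -0.72). The rise was Lpl, the lipoprotein lipase that macrophages also make, at 266 ± 47.9 CPM in SR9009, 352 ± 35.3 CPM in Vehicle (SD, n = 5 each) and 16.5 ± 5.23 CPM in Chow (SD, n = 4), 21.3-fold higher in Vehicle than in Chow (adjusted p = 4.78e-10, edgeR's quasi-likelihood test). Lmf1, a lipase folding factor, fell by 0.96 on the log2 scale, and Lcat, which esterifies cholesterol on high density lipoprotein, by 0.72.

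In the list for lipidation, export and editing of ApoB, 2 of 25 tested genes rose and 14 fell in Vehicle (median -0.33). Ces1d, a triglyceride hydrolase that supplies lipid for secretion, was at 244 ± 31.7 CPM in SR9009, 159 ± 42.3 CPM in Vehicle (SD, n = 5 each) and 750.0 ± 206 CPM in Chow (SD, n = 4). Its log2 fold change was -2.23 ± 0.19 SE in Vehicle against Chow (adjusted p = 2.21e-07) and 0.61 ± 0.18 in SR9009 against Vehicle, not called (adjusted p = 0.283, edgeR's quasi-likelihood test). Ces1d has close relatives in its family, and reads could be split among them. Aadac, a related lipase, fell by 1.44 and Sar1b, a small GTPase of the coats that carry lipoproteins out of the endoplasmic reticulum, by 1.13. Apobec1, the enzyme that edits ApoB mRNA, rose 2.12-fold (adjusted p = 2.49e-06). A1cf, which assists Apobec1 and was picked after its value was seen, fell by 1.37 (adjusted p = 1.27e-05).

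Receptors and sterol exporters went both ways, with 6 of 17 higher and 7 lower in Vehicle (median -0.10). Sorl1, a sorting receptor, was 4.54-fold and Abcg1, a sterol exporter abundant in macrophages, 4.47-fold higher. Lrp8, an apolipoprotein E receptor, was 8.34-fold higher from a low level (1.38 ± 0.159 CPM in Vehicle, SD, n = 5, and 0.166 ± 0.0545 CPM in Chow, SD, n = 4), and Stab1, a scavenger receptor of endothelium and macrophages, was 1.84-fold higher. Macrophage markers, whose sums are given above, rose beside these, and their part was not tested.

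Of 26 regulators of apolipoprotein genes, 0 rose and 19 fell (median -0.66). Srebf1, which drives lipogenesis, fell by 1.88, Creb3l3, an activator of Apoa4 and Apoc2 in mouse liver, by 0.70 and Nr5a2 by 0.61. Nr1d1, which encodes the SR9009 target REV-ERB alpha and was picked after its value was seen, averaged 97.5 CPM in SR9009, 79.8 CPM in Vehicle and 135 CPM in Chow. Its log2 fold change was 0.29 in SR9009 against Vehicle (adjusted p = 0.734) and -0.76 in Vehicle against Chow (adjusted p = 0.000662, edgeR's quasi-likelihood test). Of 20 secreted hepatocyte proteins outside the pathway, 0 rose and 15 fell (median -0.70), among them Serpina3k by 2.86, Serpinc1 by 0.99, Ttr by 0.89 and Serpina1a by 0.86. Serpina3k and Serpina1a belong to families of near-identical genes, so their counts are uncertain.

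With unscaled totals the counts higher and lower in Vehicle were 3 and 5 for other apolipoproteins, 2 and 5 for plasma enzymes, 10 and 7 for lipidation and export, 10 and 4 for receptors, 5 and 7 for regulators, and 3 and 7 for secreted proteins. These stand beside 10389 genes called higher and 1378 called lower among all 18181 tested genes on unscaled totals. Leaving out 1 library changed the counts lower in Vehicle little, to 7 to 8, 8 to 9, 12 to 15, 7 to 8, 18 to 20 and 15 to 16 in the same order. The other apolipoproteins higher were 1 instead of 2 without Vehicle replicate 4 or 5 or without Chow replicate 1, 2 or 3. The regulators higher were 1 without Vehicle replicate 2 or 5 and 2 without Chow replicate 4. Plasma enzymes higher were 2 without Vehicle replicate 4, and secreted proteins higher were 1 without Chow replicate 4. In SR9009 against Vehicle no gene of any of the 6 lists was called by edgeR's quasi-likelihood test, while DESeq2 called 1 higher in each of the lists of other apolipoproteins, lipidation and export, and receptors, and edgeR called 1 receptor gene higher without Vehicle replicate 4. In SR9009 against Chow the counts higher and lower were 3 and 8, 1 and 7, 2 and 13, 6 and 6, 1 and 20, and 1 and 17 in the same order of lists, beside 30.5% of all genes called higher and 25.7% lower. With unscaled totals those counts were 3 and 5, 3 and 5, 11 and 6, 10 and 1, 5 and 7, and 3 and 9. The background for SR9009 against Chow was then 9964 genes higher and 1577 lower among all 18181 tested genes. In that comparison the regulators higher were 2 without SR9009 replicate 1 or Vehicle replicate 5 and 3 without Chow replicate 4, lipidation and export genes higher were 1 without Chow replicate 4, and secreted proteins higher were 0 without SR9009 replicate 2, 3 or 5 or Chow replicate 1, 2 or 3.

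**Figure D4:**
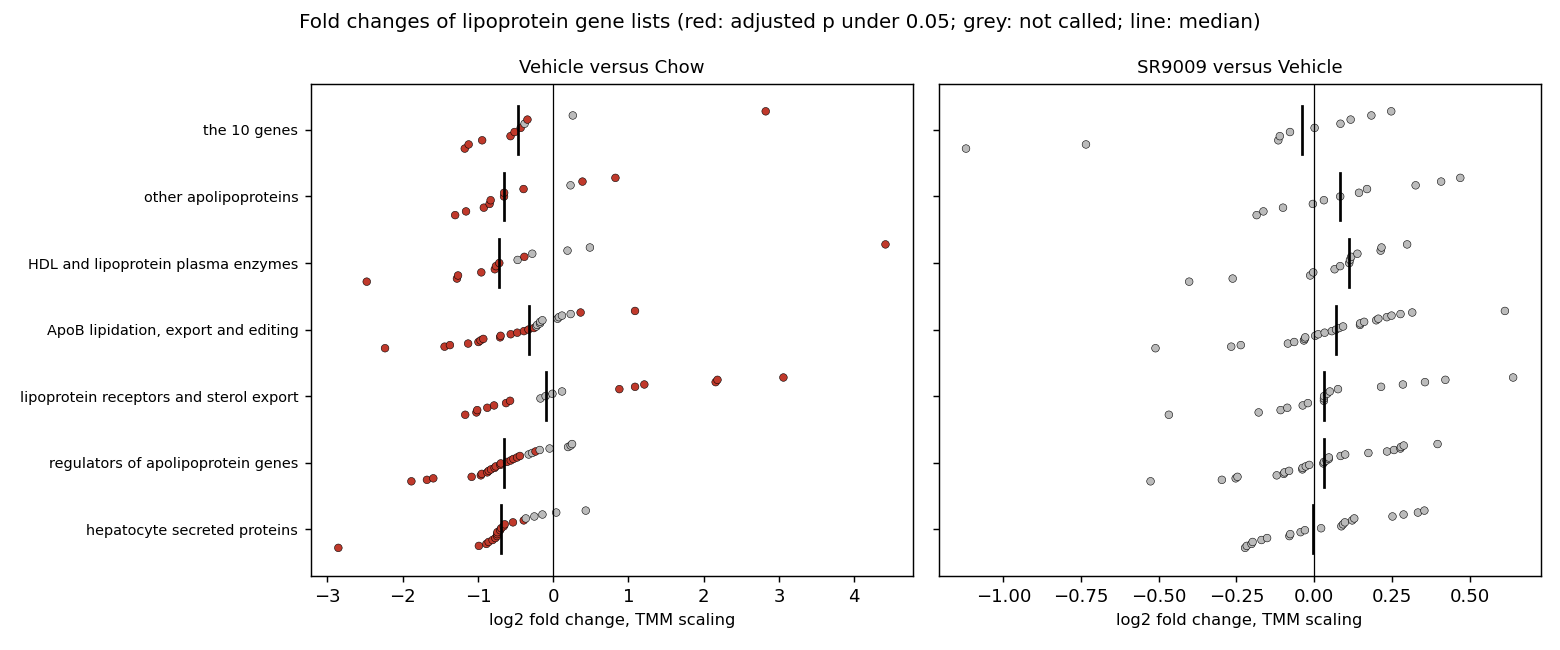
Log2 fold change of each tested gene of the 10 and of 6 related lists in Vehicle against Chow and in SR9009 against Vehicle, on TMM-scaled totals, red where adjusted p was under 0.05 and grey where not, with the list median as a line. In Vehicle against Chow all 7 medians are below 0 on this scaling, from -0.72 for plasma enzymes to -0.10 for receptors. In SR9009 against Vehicle no point is red. With unscaled totals the falls are fewer, as given in the text, and medians may reverse.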

How the data were processed

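The labels describe 15 liver samples, of which 14 entered the analysis, and Chow replicate 5 was not used here. The authors deposited a table of raw counts keyed by Ensembl gene. The submitters' processing notes name STAR 2.7.11b and GRCm39. Counting tool, annotation and strand setting were not given in the sources used here, so overlapping, antisense and near-identical genes are uncertain. Symbols came from GENCODE M21, used for names, exon lengths and overlaps, and matched 51880 of 57132 identifiers (90.8%, with 99.6% of counts).

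The main test was edgeR 4.0.16 in R 4.3.3. Low counts were removed by filterByExpr (minimum count 10 and total 15), which left 18181 genes; after TMM scaling, robust quasi-likelihood models covered all 3 groups, and Benjamini-Hochberg adjusted p-values used every gene tested, with 0.05 as threshold. The fit was tested on simulated data. Totals were 29950509 to 45542335, and 3 counts corresponded to 0.0659 to 0.100 CPM on raw totals; counting precision covers counting error only. No pair of libraries looked like a repeat: over 26 pairs of 1 group the mean chi-square per gene was at least 15.7. Labels describe separate mice, and p-values weigh group differences against the spread between these samples.

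Ratios of counts were tested with SciPy 1.17.1 by exact permutation. Tried beside these were limma-voom with quality weights (limma 3.58.1), DESeq2 1.42.0, other filters and scalings, fits to only the groups compared, a replicate block, each library left out, and, because libraries parted by receptor genes with a count, a class term and within-class fits; within-class ratios were added after seeing the data. Same-numbered libraries did not deviate together. The genes, lists, ratios and alternatives were chosen with earlier results of these data known. Besides the 10 genes, the text names up to 4 called genes of each list with the smallest adjusted p in Vehicle against Chow, the 3 genes most like each member among those at a mean of at least 10 CPM, and a few others said to be picked after their values were seen; some genes that this rule names are not reported here.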

Additional observations from a re-analysis of the deposited data

Results flagged for a closer look

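Of 117 sets of values of 1 gene or ratio in 1 group, 9 held a library that stood apart from the others of its group by Dixon's test at 95%; chance alone flags about 1 in 20 such sets, and sets of related genes are not independent. Apoa4 was at 401 CPM in Vehicle replicate 2, against 44.3 to 52.5 CPM in the other Vehicle libraries, and its ratio to Apoa1 counts there was 0.0827, against 0.00679 to 0.00876. Tm6sf2 was at 35.3 CPM in SR9009 replicate 5, against 25.6 to 27.7 CPM in the other SR9009 libraries.

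The ratio of Apoa2 to Apoa1 counts was 0.527 in SR9009 replicate 2, against 0.598 to 0.624. The ratio of Mttp to Apob counts was 0.0493 in Vehicle replicate 4, against 0.0383 to 0.0404 in the other Vehicle libraries. The ratio of Tm6sf2 to Apob counts was 0.00371 in Chow replicate 3, against 0.00546 to 0.00569. In Chow replicate 1 Apoh was at 2611 CPM, against 2064 to 2138 CPM, and Serpinc1 at 3057 CPM, against 2436 to 2527 CPM. Lrp8 was at 0.247 CPM in Chow replicate 4, against 0.132 to 0.143 CPM. The causes were not tested.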

How the results depend on the processing

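Counts of genes called in SR9009 against Vehicle depended on the method: 44 with edgeR, 212 with DESeq2, 15 with the replicate block, 106 with a receptor class term and 23 within the libraries with many receptor genes; each library left out in turn gave 18 to 56. In each of these fits 0 of the 10 genes were called. Replicate numbers do not pair the libraries: over 13 same-numbered pairs the correlation of deviations was -0.36 to 0.20, with 3 over 0.1, and 1 of 14 libraries correlated best with its own number. Under the replicate block Apoe (-0.35, adjusted p = 0.0544) and Tm6sf2 (-0.45, adjusted p = 0.0510) in Vehicle against Chow lost their calls, and Apoa4 in SR9009 against Chow was called (2.06, adjusted p = 0.0159). Apoe (-0.28) lost its call in Vehicle against Chow with upper-quartile factors, Tm6sf2 with those, DESeq2 size factors, no filter, a minimum count of 50 and only the groups compared, and Apoa1 in Vehicle against Chow was called by DESeq2 (-0.38, adjusted p = 0.0287). DESeq2 gave Apoa4 no adjusted p, so it called 0 of the 10 higher.

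Unscaled totals reversed Apoa1 (0.10), Apoe (0.14) and Tm6sf2 (0.055) in Vehicle against Chow, and Apoe (0.033) and Tm6sf2 (0.27) in SR9009 against Chow. In SR9009 against Vehicle the Apoa5 value, near 0, reversed with DESeq2 (-0.0011), limma-voom (-0.013), DESeq2 size factors (-0.0011), unscaled totals (-0.034), upper-quartile factors (-0.0031), a minimum count of 50 (-0.0034), only the groups compared (-0.0056), a class term (-0.0083) and within libraries with few receptor genes (-0.054). Within those libraries Apoa4 (0.041) and Apob (0.059) reversed too. Leaving out 1 library gave -0.089 to 0.10 for Apoa5, -0.025 to 0.17 for Apoc3 and -1.33 to 0.17 for Apoa4.

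Differences of median log2 ratios had adjusted p of 0.0769 or more, so the calls were lost. For Vehicle minus Chow they were 2.28 (Apoa4 to Apoa1), -0.62 (Apoc3 to Apoa1), -0.50 (Apoa2 to Apoa1), -0.61 (Mttp to Apob) and -0.042 (Tm6sf2 to Apob, reversed). For SR9009 minus Vehicle they were 0.23 (Apoa4 to Apoa1, reversed), 0.27 (Apoa2 to Apoa1) and 0.34 (Mttp to Apob). For SR9009 minus Chow they were 2.51, -0.48, -0.23, -0.27 and 0.38 in the first order. In libraries with few receptor genes Apoa4 to Apoa1 was 0.19 and Apoe to Apoc2 0.21.

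Leaving out 1 library of either group compared makes the smallest possible p larger, and in those tests each called ratio missed the threshold. Ranges for Vehicle minus Chow were 2.03 to 3.16 (Apoa4 to Apoa1), -0.83 to -0.60 (Apoc3 to Apoa1), -0.68 to -0.45 (Apoa2 to Apoa1), -0.68 to -0.54 (Mttp to Apob) and -0.039 to 0.22 (Tm6sf2 to Apob). For SR9009 minus Chow they were 2.03 to 2.81, -0.66 to -0.43, -0.43 to -0.20, -0.35 to -0.25 and 0.35 to 0.57 in the same order, -0.14 to 0.075 (Apoa5 to Apoa1) and -0.25 to 0.28 (Apoe to Apoc2). For SR9009 minus Vehicle they were -0.56 to 0.34 (Apoa4 to Apoa1), 0.18 to 0.29 (Apoa2 to Apoa1) and 0.27 to 0.36 (Mttp to Apob). The causes were not tested.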

Other observations

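Other genes of plasma triglyceride handling and lipogenesis, picked after their values were seen, also moved in Vehicle against Chow. Angptl8, a secreted regulator of plasma triglyceride made in liver and fat, averaged 32.5 CPM in SR9009, 30.1 CPM in Vehicle and 167 CPM in Chow, a log2 fold change of -2.48 in Vehicle against Chow (adjusted p = 0.00131, edgeR's quasi-likelihood test). Mlxipl, which encodes the carbohydrate-responsive factor ChREBP, averaged 169 CPM in SR9009, 202 CPM in Vehicle and 645 CPM in Chow (log2 fold change -1.68 in Vehicle against Chow, adjusted p = 5.16e-05). Lpl had a log2 fold change of -0.40 in SR9009 against Vehicle and was not called (adjusted p = 0.552, edgeR's quasi-likelihood test).

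Among the 10 genes, deviations from the group means over 14 libraries went most closely together for Apoa5 and Apoe (Pearson r = 0.81), Apoa5 and Apoc3 (0.78) and Apoa1 and Apoa5 (0.74), and most oppositely for Apob and Apoe (-0.46). Without Vehicle replicate 2, over 13 libraries, the closest pair was instead Apoa2 and Apoc3 (0.89, against 0.73 over all libraries). Over those 13 libraries Apoa5 and Apoe gave 0.82, Apoa2 and Apoa5 0.81, and Apob and Apoe -0.40. Apoa2 and Apoa4 gave -0.44 over all libraries and 0.51 without that library, so the sign of that pair rests on it. These are descriptions over libraries that share depth and transcript balance.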
